A study of Rattus norvegicus with 9 samples.

Results

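The genes of the proteasome were followed across 9 RNA sequencing libraries of CD4+ T cells from rat peripheral blood. A gene was included when its reference name in the deposited transcript tables was Psma, Psmb, Psmc, Psmd, Psme or Psmf followed by a digit and its mean level was at least 1 TPM, the length-scaled share of transcripts that the authors' software reports. Of 46 names of that form, 44 passed, out of 14175 gene units at or above the same level. Among the 44, 42 encode subunits, activators, an inhibitor or assembly chaperones of the proteasome. The other 2 encode no part of the proteasome and are described apart. They are Psmc3ip, a cofactor of meiotic recombination, and Psme1-ps1, a pseudogene copy of Psme1. When only transcripts with a reference name were summed, the lowest names inside the limit were Psmc3ip at 2.40, Psmd5 at 2.72 and Psme1-ps1 at 2.86 TPM, and the names outside it were Psmb11 at 0.00622 and Psma8 at 0.00199 TPM.

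All 9 libraries came from SD rats, labelled as 8 to 10 weeks old. They form 3 groups of 3 libraries, labelled normal, model and combination. The model is a rat with CIA, read here as collagen-induced arthritis because the series concerns rheumatoid arthritis. Rats of the combination group had CIA too and received several compounds together over 4 weeks. The labels do not name the compounds, do not say what the model rats were given in their place, do not describe how CD4+ cells were selected, and do not say that each library is a separate animal, so p-values measure the spread between libraries, which may be technical. The headers of the combination tables carry names that differ from the labels, unlike those of the other groups (all 9 also hold the word normal), so a difference in processing and the effect of the compounds cannot be told apart.

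The aligned bases behind each library amounted to 7.52 to 10.1 Gb, estimated from the ratio of coverage to FPKM, and the mean coverage of the included genes in a library had a median of 375 reads per base. Summed T cell markers were 3645 to 4426 TPM in normal, 2744 to 3650 in model and 3263 to 3598 in combination libraries, while summed B cell markers stayed between 8.0 and 40.0 TPM. Markers of other blood cells moved with the groups. Summed monocyte markers were 128 to 301, 152 to 282 and 479 to 848 TPM in normal, model and combination libraries, summed platelet markers 12.4 to 33.3, 23.7 to 40.6 and 95.5 to 146, and summed red cell markers 60.7 to 1123, 2408 to 16214 and 262 to 866. Summed cytotoxic and NK markers were 102 to 163, 51.7 to 75.0 and 82.5 to 110 TPM, and summed neutrophil markers 15.0 to 35.5, 1.1 to 9.1 and 5.4 to 8.8 TPM. No marker in these lists was at 0 in all 9 libraries, and the part of these cells in the results below was not tested. In bulk RNA, fewer cells of a type and less RNA per cell cannot be told apart.

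The proteasome degrades ubiquitin-tagged proteins. Its barrel-shaped core stacks rings of alpha subunits (Psma genes) and beta subunits (Psmb genes), and some of the beta subunits cut peptide bonds. A regulatory particle caps the core: its base holds the ATPases that unfold substrates (Psmc genes) and its lid holds subunits that remove ubiquitin (among the Psmd genes). In lymphocytes and in cells exposed to interferon gamma, the inducible catalytic subunits Psmb8, Psmb9 and Psmb10 replace Psmb5, Psmb6 and Psmb7 to form the immunoproteasome, which shapes the peptides shown on MHC class I, and activators encoded by the Psme genes can dock on the core in place of the regulatory particle.

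Across the 42 genes, few differences between groups passed the test, in which limma was fitted to log2(TPM + 1) of all 14175 gene units and p-values were adjusted over all of them with a threshold of 0.05. In model against normal libraries, 1 of 42 genes rose (Psmd9) and 0 fell, where 4.99% of all genes tested passed, 2.84% higher and 2.15% lower. In combination against model libraries, 1 rose (Psme4) and 2 fell (Psmd8 and Psme3), against 4.49% of all genes, 2.41% higher and 2.07% lower. In combination against normal libraries, 1 rose (Psme4) and 0 fell, against 4.59% of all genes, 2.62% higher and 1.98% lower. A count of 1 or 2 of 42 is close to these background shares. Without adjustment, limma gave p under 0.05 for 16 of 42 genes in model against normal and 11 of 42 in combination against normal, in either direction. The share of all genes at this unadjusted level was not computed, so these counts cannot be read as an excess. They are not split by direction and do not bear on the counts of 0 falling genes.

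The direction of the log2 fold changes was less even. In model against normal libraries, 32 of 42 genes had a fold change above 0, where 49.2% of all genes tested did, and the median was 0.21 on the log2(TPM + 1) scale against -0.01 over all genes. All 3 model libraries lay above all 3 normal libraries for 15 genes and below them for 2, against 33.2% of all genes apart, 18.7% higher and 14.5% lower. In combination against model libraries, 20 of 42 were above 0 with a median of -0.02, where 53.2% of all genes were above 0 and the median was 0.03, and the groups were apart with combination higher for 2 genes and lower for 6 (26.9% of all genes were apart, 13.9% higher and 13.0% lower). In combination against normal libraries, 30 of 42 were above 0 with a median of 0.21, where 53.7% of all genes were above 0 and the median was 0.04, and the groups were apart with combination higher for 13 genes and lower for 7 (35.8% of all genes were apart, 17.9% in each direction). The 3 comparisons share libraries pairwise, so their counts are not independent of each other.

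**Figure D1:**
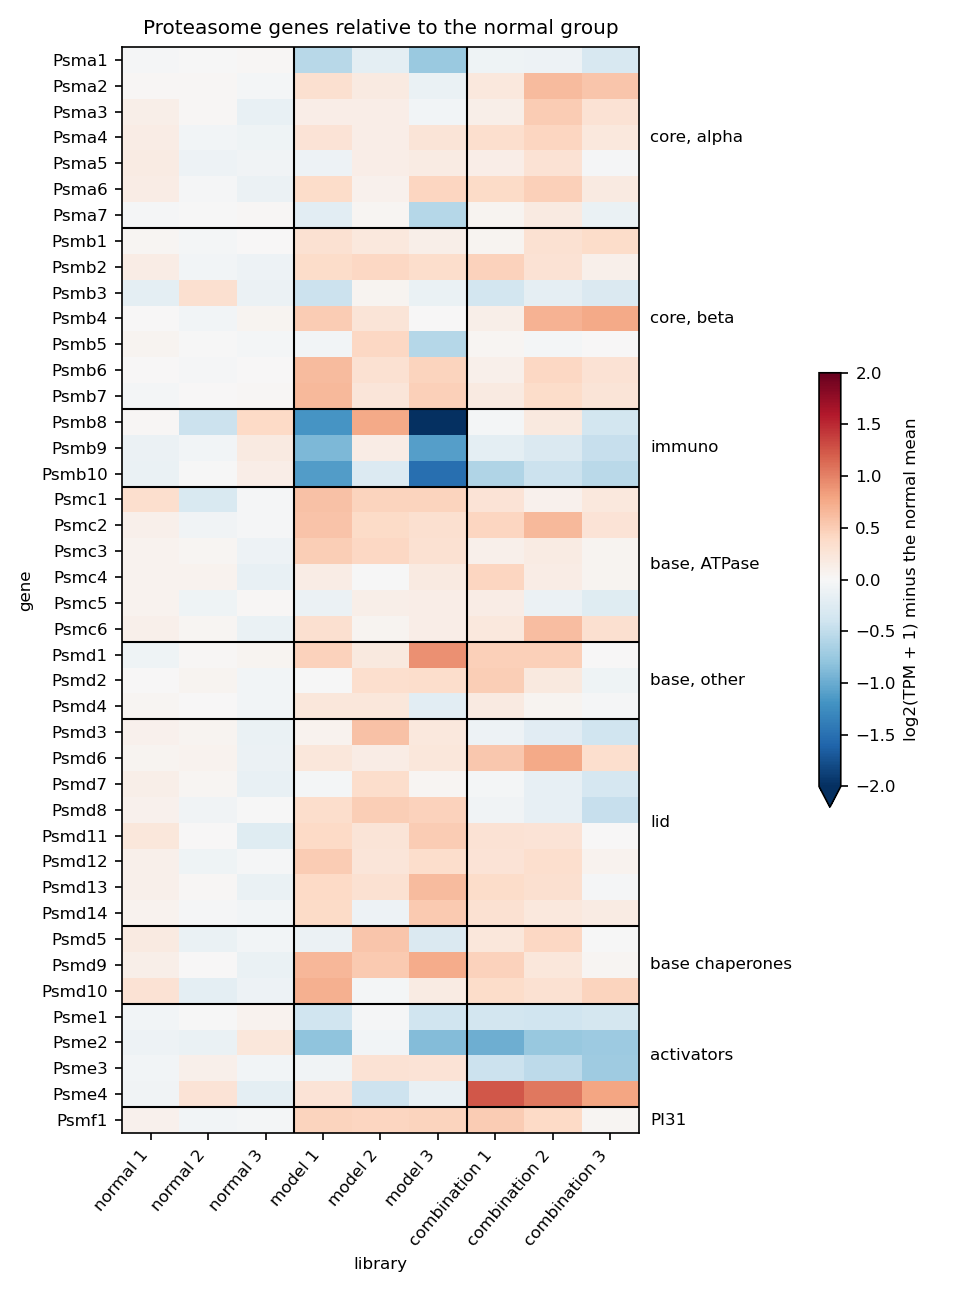
Level of each of the 42 proteasome genes (rows, ordered by subcomplex) in each of the 9 libraries (columns), as log2(TPM + 1) minus the mean of the 3 normal libraries; the colour scale ends at -2, and Psmb8 in model replicate 3 lies beyond it. Psmb8, Psmb9 and Psmb10 were low in model replicates 1 and 3, and Psme4 was high in the 3 combination libraries.

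**Figure D2:**
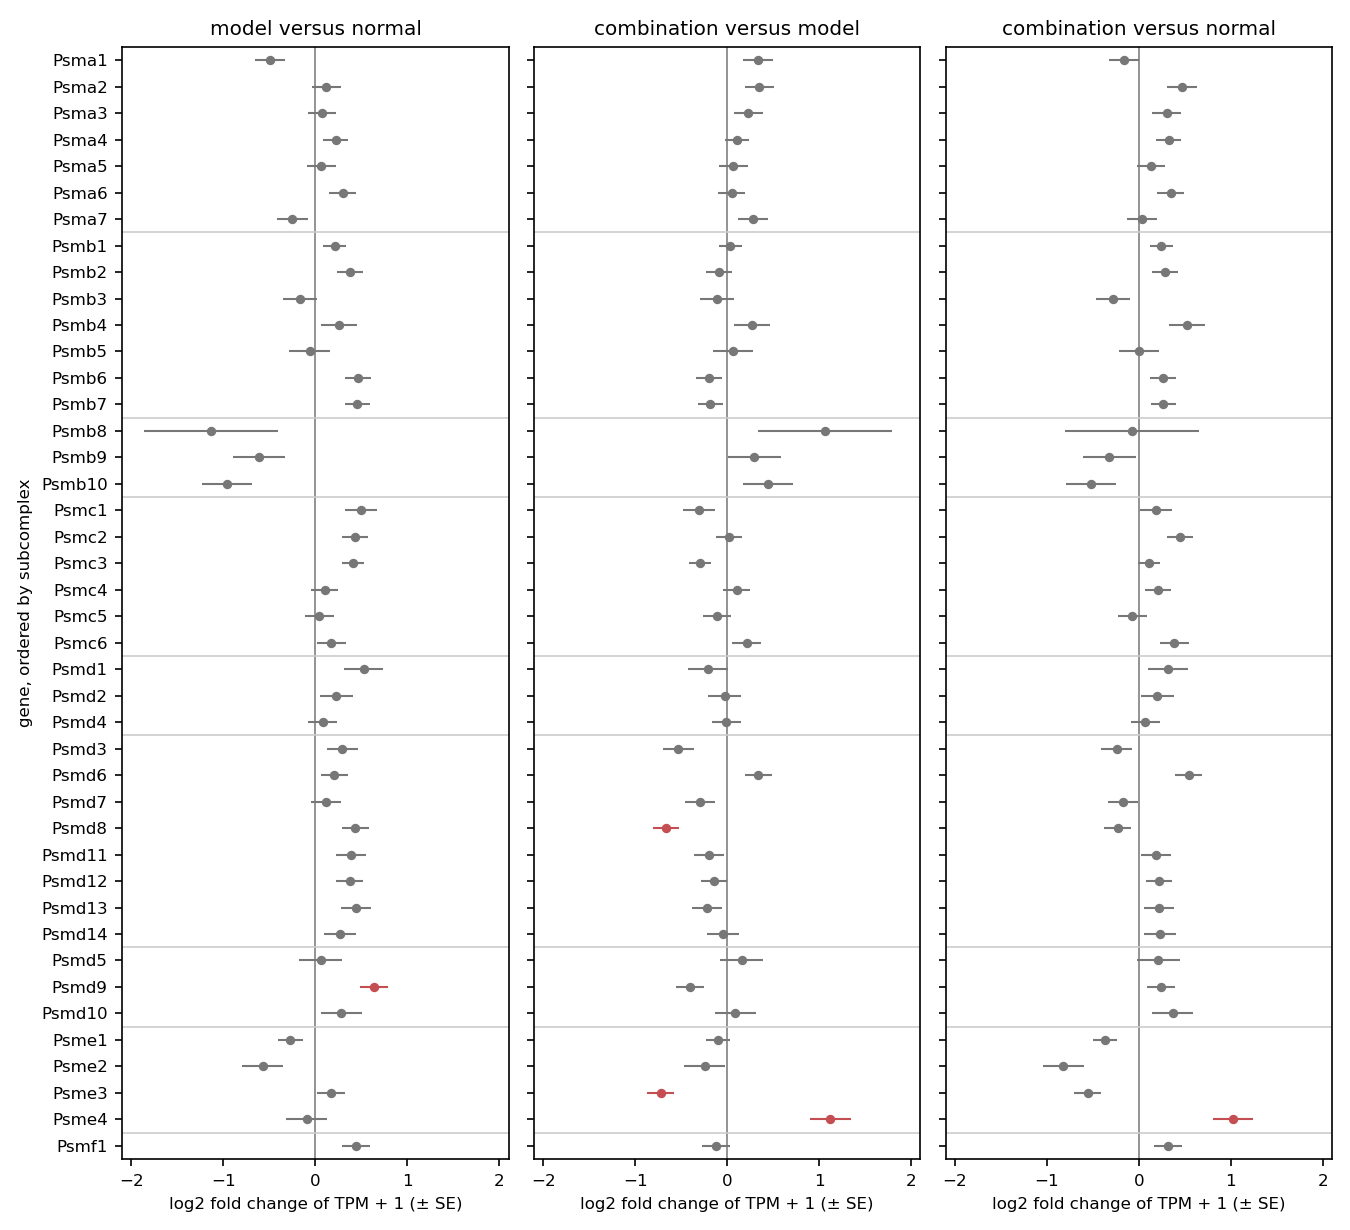
Log2 fold change of TPM + 1 with its standard error from limma for each of the 42 genes in the 3 comparisons, 3 libraries a group; red points passed the adjusted threshold. Psmd9 passed in model against normal, Psmd8, Psme3 and Psme4 in combination against model, and Psme4 in combination against normal.

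Levels differed widely between subunits that sit in the complex in equal numbers. TPM is scaled by transcript length, so levels of different genes can be set beside each other. Psme1 was the most abundant, with a mean of 481 TPM over the 9 libraries, followed by Psmb4 at 462 and Psmb1 at 347, and Psmd10, at 8.92 TPM, was the least abundant. Among the alpha subunits, which form the outer rings of the core, levels ran from 35.0 TPM (Psma5) to 257 (Psma7), and among the constitutive beta subunits from 78.1 (Psmb3) to 462 (Psmb4). The ATPases of the base ran from 45.5 (Psmc6) to 160 TPM (Psmc3), the other base subunits from 17.9 (Psmd1) to 56.9 (Psmd2), and the lid from 38.9 (Psmd7) to 96.6 (Psmd13). The 42 genes summed to 4507 ± 60.7 TPM in normal, 4902 ± 314 in model and 4898 ± 248 in combination libraries (SD, n = 3 each), and the lowest model sum, 4555, lay below the highest normal sum, 4574.

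Most of these genes varied little between libraries of a group. The median coefficient of variation was 7.43% over the 42 genes in normal libraries, 13.4% in model and 10.8% in combination libraries. Over all genes tested it was 13.2%, 24.6% and 20.0%. Over the 7576 genes whose mean level was at least that of the lowest of the 42, it was 10.1%, 20.3% and 17.5%. The largest was that of Psmb8 in model libraries, 112%. Part of each level is an estimate of how reads divide among transcripts. Transcripts assembled from reads, with no reference name of their own, carried a median of 14.5% of a gene's TPM and over 50% for 7 of the 42 genes, among them Psmd9 (73.0%), Psmd11 (86.0%), Psmd1 (82.0%) and Psmd10 (61.4%). RefSeq lists 49 pseudogenes or near copies of these genes in the rat, of which the tables name 1, so reads of a gene with copies may have been split or pooled.

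In the constitutive core, no gene passed the test in any comparison. Of the 14 genes, 10 had a fold change above 0 in model against normal libraries (median 0.16) and 12 in combination against normal (median 0.27). Of all genes tested, 49.2% and 53.7% were above 0 in these comparisons. Psmb6 and Psmb7, 2 of the 3 constitutive catalytic subunits, lay higher in every model library. Psmb6, with caspase-like activity, was at 147, 143 and 147 TPM in normal, 225, 180 and 199 in model, and 155, 193 and 177 in combination libraries. Psmb7, with trypsin-like activity, was at 211, 219 and 220 TPM in normal, 341, 256 and 300 in model, and 246, 280 and 259 in combination libraries. For both, every model and every combination library lay above every normal library, and the log2 fold changes of model against normal were 0.46 ± 0.14 (SE; limma adjusted p = 0.0786) and 0.45 ± 0.14 (adjusted p = 0.0800), short of the threshold.

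Psmb5, the chymotrypsin-like constitutive subunit, did not share that pattern. It was at 110, 105 and 102 TPM in normal, 102, 142 and 71.0 in model, and 109, 103 and 106 in combination libraries. The model libraries thus lay on both sides of a narrow normal range, with a fold change of -0.06 ± 0.22 (SE). The subunits of the alpha ring gate entry to the core. In combination against model libraries, 7 of its 7 genes had fold changes above 0 (median 0.23), where 53.2% of all genes did. None of the 7 passed. Over the 21 alternative settings, 5 to 7 of them remained above 0. Some of these settings cannot change a fold change. They are another filter, no intensity trend, a replicate block, only the 2 groups compared, and a library outside the 2 groups left out. Psma1 alone of the core genes outside the immunoproteasome lay lower in every model library (54.4, 69.7 and 47.5 TPM) than in every normal library (79.2, 79.3 and 81.8 TPM), with a log2 fold change of -0.50 ± 0.16 (SE; limma adjusted p = 0.0981).

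The immunoproteasome genes had negative fold changes in model against normal libraries, unlike most of the complex, but 1 model library did not share this. Psmb8, the inducible counterpart of Psmb5 (chr20:3990613-3993769 on rn6, + strand), was at 80.0, 58.2 and 104 TPM in normal, 34.0, 133 and 9.19 in model, and 76.7, 89.7 and 60.5 in combination libraries. Psmb9, the counterpart of Psmb6 (chr20:3973420-3978845, - strand), was at 123, 128 and 150 TPM in normal, 71.3, 148 and 61.1 in model, and 116, 108 and 96.3 in combination libraries. Psmb10, the counterpart of Psmb7 (chr19:37909546-37912027, - strand), was at 105, 114 and 125 TPM in normal, 52.4, 94.7 and 39.5 in model, and 75.3, 84.6 and 78.8 in combination libraries. For all 3 genes, model replicates 1 and 3 were the lowest of the 9 libraries and model replicate 2 stood well above them. For Psmb10 every model and every combination library was below every normal library, and for Psmb9 this held for the combination libraries alone.

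None of the 3 differences passed. The log2 fold changes of model against normal were -1.13 ± 0.73 for Psmb8 (SE; limma adjusted p = 0.339), -0.61 ± 0.29 for Psmb9 (adjusted p = 0.202) and -0.96 ± 0.27 for Psmb10 (adjusted p = 0.0662). Against model, the combination libraries gave 1.06 ± 0.73 for Psmb8 (adjusted p = 0.388), 0.29 ± 0.29 for Psmb9 (adjusted p = 0.552) and 0.45 ± 0.27 for Psmb10 (adjusted p = 0.324). The sign of each of these 6 values was kept in all 21 alternative settings, some of which cannot change a fold change. Against normal, the combination libraries gave -0.07 ± 0.73 for Psmb8, -0.32 ± 0.29 for Psmb9 and -0.52 ± 0.27 for Psmb10, with adjusted p of 0.961, 0.516 and 0.254.

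In model against normal libraries, Psmb8 passed in 1 of 21 alternative settings, and Psmb9 and Psmb10 in 2 each. Leaving out model replicate 2 was among them and brought all 3 genes past the threshold, and the share of all genes that passed rose too. Without that library, model against normal gave -2.08 for Psmb8 (limma adjusted p = 0.0206), -1.0 for Psmb9 (adjusted p = 0.00651) and -1.31 for Psmb10 (adjusted p = 0.00375). In that fit 10 of the 42 genes passed, 4 higher and 6 lower, where 19.9% of all genes did, against 4.99% with all 9 libraries. The other calls were lower for Psma1, Psme1 and Psme2 and higher for Psmb6, Psmb7, Psmd14 and Psmd9. Without that library, combination against model gave 2.00 for Psmb8, 0.68 for Psmb9 and 0.79 for Psmb10 (adjusted p = 0.0391, 0.0362 and 0.0290), where 9.21% of all genes passed. Summed T cell markers were 2744, 3650 and 3044 TPM in model replicates 1, 2 and 3, against 3645, 4426 and 3691 in normal libraries. Cd4 and Cd3e, picked from that list after their values were seen, differed more than the sum. Cd4 was at 76.5, 186 and 99.1 TPM in model replicates 1, 2 and 3, against 202, 230 and 235 in normal libraries. Cd3e was at 232, 405 and 228 against 427, 434 and 432. Summed cytotoxic and NK markers were 51.7, 75.0 and 52.7 TPM in the 3 model libraries and summed red cell markers 16214, 3361 and 2408 TPM. Their part in the result was not tested.

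**Figure D3:**
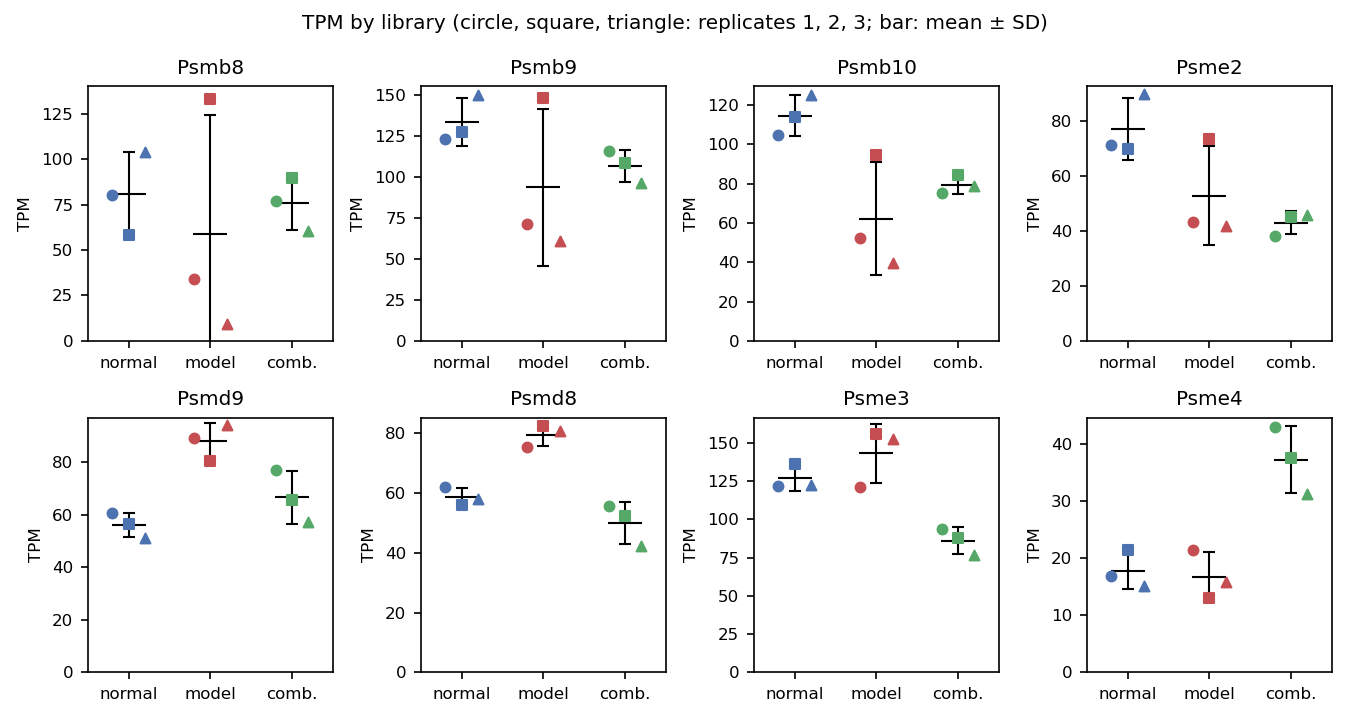
TPM in each library for the 3 immunoproteasome genes, Psme2 and the 4 genes that passed in a comparison, with the mean ± SD of 3 libraries per group (the lower bar of Psmb8 in the model group is cut at 0). In the top row, model replicate 2 (square) lies above model replicates 1 and 3, and in the bottom row the combination libraries of Psme4 lie between 31.3 and 42.9 TPM, above all others.

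The exchange of catalytic subunits can be read from the ratio of each inducible gene to the constitutive gene it replaces, within a library. Psmb10 to Psmb7 was 0.495, 0.522 and 0.568 in normal libraries, 0.154, 0.370 and 0.131 in model libraries, and 0.306, 0.302 and 0.304 in combination libraries, so every normal library lay above every other library, and the combination group spread least (0.304 ± 0.00185, SD, n = 3). Psmb9 to Psmb6 was 0.838, 0.892 and 1.02 in normal, 0.317, 0.824 and 0.307 in model, and 0.744, 0.560 and 0.543 in combination libraries, again with every normal library highest. Psmb8 to Psmb5 was 0.728, 0.556 and 1.02 in normal, 0.333, 0.940 and 0.129 in model, and 0.705, 0.875 and 0.572 in combination libraries, and these groups overlapped. Counting only transcripts with a reference name, the narrow spread of Psmb10 to Psmb7 in the combination group was not kept (0.247, 0.360 and 0.270), and the normal libraries (0.562, 0.496 and 0.544) still lay above the rest.

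**Figure D4:**
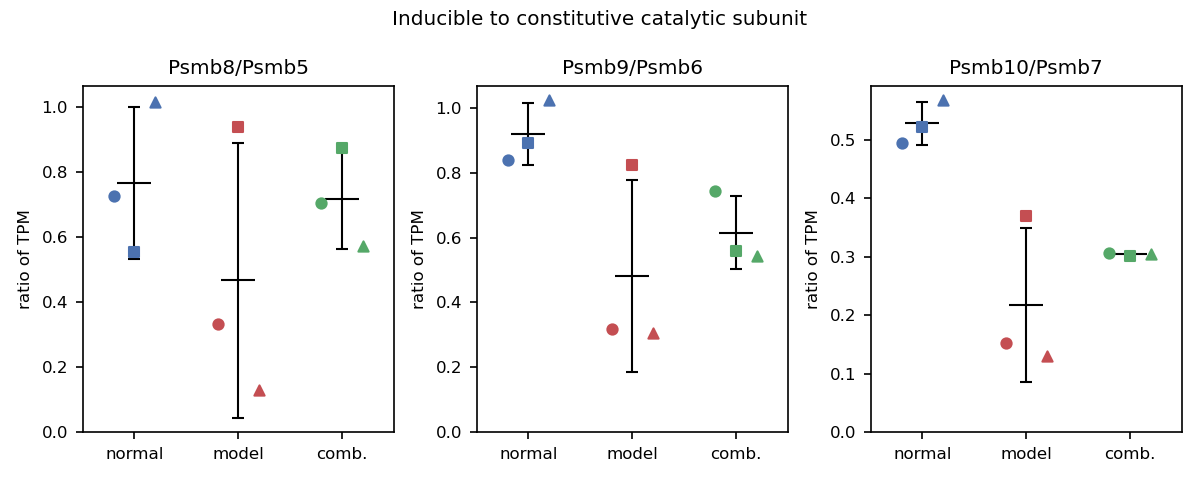
Ratio of TPM of each inducible catalytic subunit to the constitutive subunit it replaces, by library, with the mean ± SD of 3 libraries per group. The normal libraries lie above all others for Psmb9/Psmb6 and Psmb10/Psmb7, while for Psmb8/Psmb5 the groups overlap.

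Psmb8 is the least certain of the 3 levels. Its assembled locus also holds Tap1 and Tap2, which encode the MHC class I peptide transporter, and 6 transcripts share the gene's reads. The 5-exon reference form of 1458 bases carried 50.8% of the TPM in normal, 67.9% in model and 41.3% in combination libraries, and an assembled transcript of 8 exons carried 10.2%, 6.79% and 17.0%. These shares pool the 3 libraries of a group, and model replicate 2 dominates the model share. The 5-exon form was at 10.2, 105 and 4.08 TPM in model replicates 1, 2 and 3, where the gene was at 34.0, 133 and 9.19 TPM. For Psmb9, by contrast, the 6-exon reference transcript of 917 bases carried 98.6%, 99.1% and 98.3%, and for Psmb10 the 8-exon reference transcript of 996 bases carried 87.0%, 84.4% and 81.5%.

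The start regions of the inducible genes are shown because these genes and the activator gene Psme2 were low in the same model libraries. Psme1 and Psma1 were low in those libraries too. Their start regions are not shown, and neither is among the genes with a match named below. Each window runs from 250 bases before to 50 bases after the start of the gene in RefSeq (build GRCr8), 5′ to 3′ on the gene's own strand, with capitals marking matches on either strand to GAAANNGAA, a core of the elements bound by interferon regulatory factors. The windows are Psmb8 at chr20:4656982-4657281 (- strand), Psmb9 at chr20:4668750-4669049 (+ strand), Psmb10 at chr19:50743243-50743542 (- strand) and Psme2 at chr15:33052702-33053001 (- strand).
Psmb8: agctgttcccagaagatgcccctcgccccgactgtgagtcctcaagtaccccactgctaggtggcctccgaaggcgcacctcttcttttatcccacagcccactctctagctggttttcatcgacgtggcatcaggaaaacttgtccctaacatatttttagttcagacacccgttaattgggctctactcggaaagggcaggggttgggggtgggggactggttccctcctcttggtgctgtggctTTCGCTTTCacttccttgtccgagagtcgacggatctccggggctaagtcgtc
Psmb9: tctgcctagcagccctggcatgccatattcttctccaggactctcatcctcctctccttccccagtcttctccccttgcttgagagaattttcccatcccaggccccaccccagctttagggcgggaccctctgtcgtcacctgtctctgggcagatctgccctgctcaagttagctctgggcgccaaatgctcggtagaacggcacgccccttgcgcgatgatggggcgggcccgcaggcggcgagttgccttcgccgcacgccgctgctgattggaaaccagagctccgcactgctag
Psmb10: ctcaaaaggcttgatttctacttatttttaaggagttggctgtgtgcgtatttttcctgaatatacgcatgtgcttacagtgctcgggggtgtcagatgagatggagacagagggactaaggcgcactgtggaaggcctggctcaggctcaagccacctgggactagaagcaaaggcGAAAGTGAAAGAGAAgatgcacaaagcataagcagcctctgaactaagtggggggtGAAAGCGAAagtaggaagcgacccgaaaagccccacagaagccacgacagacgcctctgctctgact
Psme2: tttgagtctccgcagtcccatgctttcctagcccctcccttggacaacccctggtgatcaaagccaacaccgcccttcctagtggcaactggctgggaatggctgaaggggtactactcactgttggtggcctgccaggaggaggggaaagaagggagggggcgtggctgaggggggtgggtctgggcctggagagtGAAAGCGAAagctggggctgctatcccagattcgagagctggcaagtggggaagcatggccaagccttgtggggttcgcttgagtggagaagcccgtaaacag
Psmb10 held 3 matches, beginning 73, 67 and 17 bases before the start, of which the first 2 overlap. Psmb8 held 1 match, on the opposite strand across the start, and Psme2 held 1, beginning 53 bases before it. In Psmb9 these letters do not occur in the window. Of the 38 proteasome genes with a window in the RefSeq table, 8 held a match (21.1%: Psma4, Psmb2, Psmb3, Psmb8, Psmb10, Psmd7, Psmd11 and Psme2), against 9.71% of 33469 windows of the same length, and a match is a string of letters and not evidence of binding.

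The genes of the regulatory particle lay higher on balance in the model libraries, without any single base or lid gene passing the test. All 17 base and lid genes had log2 fold changes above 0 in model against normal libraries, where 49.2% of all genes tested did. The median was 0.29 and the range 0.04 to 0.52. For 9 of the 17, every model library lay above every normal library, as it did for 18.7% of all genes. Over 21 alternative settings, some of which cannot change a fold change, 15 to 17 of the 17 remained above 0. The lid genes summed to 516, 481 and 445 TPM in normal libraries, 594, 597 and 634 in model libraries, and 559, 555 and 460 in combination libraries. The ATPases summed to 526, 482 and 464 TPM in normal libraries, 636, 591 and 588 in model libraries, and 593, 598 and 528 in combination libraries. Both sums were higher in every model library than in any normal library, and the combination libraries overlapped the normal ones for the lid but not for the ATPases.

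In combination against model libraries, 13 of the 17 base and lid genes had a fold change below 0 (median -0.15), where 53.2% of all genes were above 0. In combination against normal libraries, 13 of 17 were above 0 (median 0.20), as were 53.7% of all genes. In the base, Psmc3, the most abundant of the ATPases, was at 148, 145 and 130 TPM in normal, 198, 189 and 174 in model, and 152, 158 and 146 in combination libraries. Its model libraries lay above the other 6, with a log2 fold change of 0.41 ± 0.12 against normal (SE; limma adjusted p = 0.0797). Psmd2, a scaffold of the base that binds ubiquitin-like domains, was at 51.1, 52.8 and 49.3 TPM in normal, 50.9, 64.7 and 65.1 in model, and 72.5, 58.4 and 47.8 in combination libraries, and its groups overlapped.

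In the lid, Psmd14, the metalloprotease that cuts ubiquitin from substrates, was at 57.2, 53.8 and 52.7 TPM in normal, 71.7, 50.6 and 79.0 in model, and 67.2, 63.4 and 61.5 in combination libraries. Model replicate 2 was the lowest of the 9, and the fold change of model against normal was 0.27 ± 0.17 (SE; limma adjusted p = 0.337). Psmd11, a scaffold subunit of the lid, was at 69.7, 59.8 and 50.1 TPM in normal, 78.3, 71.5 and 84.5 in model, and 72.9, 71.9 and 59.9 in combination libraries. Every model library lay above every normal one, with a fold change of 0.39 ± 0.16 (adjusted p = 0.165). Assembled transcripts carried 86.0% of its level. With only transcripts that carry a reference name, these groups overlapped and the fold change was 0.029. Psmd6, another structural subunit of the lid, was at 60.5, 60.9 and 53.8 TPM in normal, 68.6, 65.1 and 68.6 in model, and 85.2, 99.4 and 73.7 in combination libraries, so the 3 groups did not overlap. None of its 3 differences passed; the largest was 0.54 ± 0.15 in combination against normal (adjusted p = 0.0640).

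Psmd8, a small lid subunit (chr1:88116812-88123643 on rn6, - strand), fell in combination against model libraries. It was at 62.1, 55.8 and 58.0 TPM in normal, 75.2, 82.4 and 80.6 in model, and 55.7, 52.2 and 42.2 in combination libraries. The model libraries lay above the other 6 and the highest combination library was just below the lowest normal one. The log2 fold change of combination against model was -0.66 ± 0.15 (SE; limma adjusted p = 0.0415), and that of model against normal, 0.43 ± 0.15 (adjusted p = 0.103), did not pass. A 6-exon assembled form of 1316 bases was at 10.1 ± 2.5 TPM in normal, 21.8 ± 3.2 in model and 8.58 ± 2.1 in combination libraries (SD, n = 3), and the 7-exon reference form at 44.8 ± 0.4, 53.6 ± 0.7 and 37.5 ± 8.9 TPM. The call was lost in 12 of 21 alternative settings, among them leaving out any library other than model replicate 2, with adjusted p from 0.0624 to 0.112 in those 8 fits.

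The base is built with the help of chaperones, and 1 of them was the only gene of the 42 that rose in the model libraries. Psmd9 (chr12:38786540-38805121 on rn6, - strand), which escorts ATPase subunits into the base, was at 60.5, 56.5 and 51.2 TPM in normal, 89.0, 80.4 and 94.1 in model, and 77.1, 65.7 and 57.2 in combination libraries. The model libraries lay above the other 6, and the combination libraries overlapped the normal ones. The log2 fold change of model against normal was 0.64 ± 0.15 (SE; limma adjusted p = 0.0465), close to the threshold. Most of the level, 69.8% in normal, 74.0% in model and 74.3% in combination libraries, was assigned to a 7-exon assembled form of 1584 bases, and with only transcripts that carry a reference name the fold change was 0.41 (adjusted p = 0.226). The call was lost in 12 of 21 alternative settings, including leaving out any normal library, model replicate 1, model replicate 3 or combination replicate 2, where the adjusted p was 0.0821 to 0.153. The other chaperones, Psmd5 and Psmd10, were low (11.1 and 8.92 TPM on average) and had fold changes of 0.06 ± 0.24 and 0.28 ± 0.22 (SE).

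Of the activators, 2 changed in the combination libraries, in opposite directions. Psme4 encodes the large single-chain activator known for the degradation of acetylated histones (chr14:115166416-115269056 on rn6, + strand). It was at 16.8, 21.4 and 15.2 TPM in normal, 21.5, 13.0 and 15.8 in model, and 42.9, 37.6 and 31.3 in combination libraries. The lowest combination library lay above the highest of the other 6. The level rose 2.22-fold against model (log2 fold change 1.12 ± 0.22, SE; limma adjusted p = 0.0312) and 2.09-fold against normal (1.03 ± 0.22; adjusted p = 0.0384). The 46-exon reference transcript of 5529 bases was at 12.3 ± 3.5 TPM in normal, 10.5 ± 3.1 in model and 22.1 ± 3.6 in combination libraries (SD, n = 3), and assembled forms held the rest.

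Psme4 had log2 fold changes of 0.96 to 1.31 against model and 0.81 to 1.16 against normal in the 21 alternative settings. Its direction was thus kept in all of them, though some cannot change a fold change. The call against model was lost in 9 of them, including leaving out normal replicate 1, normal replicate 2, model replicate 3, combination replicate 1 or combination replicate 2 (adjusted p 0.0513 to 0.1004). The call against normal was lost in 8, including leaving out any normal library, combination replicate 1 or combination replicate 2 (adjusted p 0.101 to 0.131). Monocyte and platelet markers were also highest in the combination libraries, as given above. Against model, where 2.41% of all genes rose, 3 of 10 tested monocyte markers (Fcer1g, Csf1r and Cd68) and 5 of 5 tested platelet markers rose. Their part in the rise of Psme4 was not tested. The start region of Psme4 in RefSeq (GRCr8, chr14:108706393-108706692, + strand), shown because this gene had the largest difference that passed, is given here with capitals marking its match to TGACNNNGC, a string like the antioxidant response element that the factor Nrf1 binds in proteasome genes.
Psme4: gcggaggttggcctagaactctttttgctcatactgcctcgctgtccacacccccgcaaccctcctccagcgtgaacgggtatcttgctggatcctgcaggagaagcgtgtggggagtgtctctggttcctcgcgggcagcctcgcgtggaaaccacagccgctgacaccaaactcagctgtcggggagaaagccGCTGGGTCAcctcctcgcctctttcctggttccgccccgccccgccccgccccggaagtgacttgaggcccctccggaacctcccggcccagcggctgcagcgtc
The match lies on the opposite strand and begins 55 bases before the start. The same letters occurred in 8 of 38 proteasome windows (21.1%: Psma3, Psmb2, Psmb5, Psmb6, Psmd1, Psmd3, Psmd9 and Psme4) and in 12.1% of all 33469 windows, so Psmd9 held them (2 matches) and Psmd8 and Psme3 did not.

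Psme3 encodes a nuclear activator that forms a ring of its own, without Psme1 and Psme2 (chr10:89236256-89244041 on rn6, + strand). It was at 121, 136 and 122 TPM in normal, 121, 156 and 153 in model, and 93.7, 88.0 and 76.6 in combination libraries. Every combination library lay below all other libraries. The level fell against model by 0.72 on the log2 scale (SE 0.15; limma adjusted p = 0.0372), and the fold change against normal, -0.56 ± 0.15 (adjusted p = 0.0628), did not pass. The 11-exon reference transcript of 2617 bases was at 92.0 ± 6.6, 98.3 ± 9.3 and 56.7 ± 8.6 TPM in normal, model and combination libraries (SD, n = 3). The gene's assembled locus holds 4 reference names, and RefSeq lists pseudogenes of Psme3. The call against model was lost in 11 of 21 alternative settings, including leaving out any normal library, any combination library or model replicate 3 (adjusted p 0.0576 to 0.104).

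The interferon-inducible activator is a ring of Psme1 and Psme2 subunits. Psme1 was at 533, 549 and 578 TPM in normal, 419, 547 and 419 in model, and 430, 419 and 435 in combination libraries. Psme2 (chr15:34265557-34269851 on rn6, - strand) was at 71.2, 69.8 and 90.0 TPM in normal, 43.2, 73.5 and 41.7 in model, and 38.2, 45.0 and 45.7 in combination libraries. For both, every combination library lay below every normal library, and model replicate 2 again stood with the normal libraries while model replicates 1 and 3 did not.

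The differences of Psme1 and Psme2 did not pass. Against normal, combination libraries gave -0.37 ± 0.13 for Psme1 (SE; limma adjusted p = 0.120) and -0.82 ± 0.23 for Psme2 (adjusted p = 0.0665), and model libraries gave -0.27 ± 0.13 (adjusted p = 0.215) and -0.57 ± 0.23 (adjusted p = 0.141). Without model replicate 2, model against normal gave -0.40 for Psme1 (adjusted p = 0.0355) and -0.83 for Psme2 (adjusted p = 0.0132). In that fit the share of all genes that passed was also higher, as given above. Although the proteins assemble together, Psme1 transcripts exceeded those of Psme2 in every library, by 6.43 to 11.2 times, with group means of 7.26 ± 0.750, 9.06 ± 1.42 and 10.0 ± 1.07 in normal, model and combination libraries (SD, n = 3). RefSeq lists copies of both genes, whose reads could move this ratio.

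Psmf1 encodes PI31, an inhibitor of the isolated core. It was at 69.3, 63.1 and 63.7 TPM in normal, 89.7, 88.4 and 88.8 in model, and 93.8, 86.9 and 67.0 in combination libraries. The 3 model libraries were nearly equal and all above normal, with a log2 fold change of 0.44 ± 0.15 (SE; limma adjusted p = 0.107), while combination replicate 3 lay within the range of the normal libraries. Without model replicate 2 the number of genes called in combination against normal went from 1 to 5 (Psmd6 and Psme4 higher, Psme1, Psme2 and Psme3 lower), where 11.1% of all genes passed. That library is in neither of these groups, so the fold changes were the same. Only the shared estimate of the spread, and with it the p-values, differed.

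Genes that work beside these were given from fixed lists. None of 5 chaperones of the core (Psmg1 to Psmg4 and Pomp), none of 15 proteasome-associated factors and none of 12 tested genes of the Nrf1, ubiquitin and Vcp list passed in any comparison. Of all genes tested, 4.99% passed in model against normal, 4.49% in combination against model and 4.59% in combination against normal libraries. In lists this short, none or 1 passing gene is close to these shares. Of 10 genes of MHC class I peptide loading, 1 passed: Calr, the chaperone calreticulin, rose from a mean of 392 TPM in normal to 1071 in model libraries (log2 fold change 1.44; limma adjusted p = 0.0153) and fell to 490 in combination against model libraries (-1.11; adjusted p = 0.0307). Of 11 genes of interferon signalling, Irf1, a transcription factor that binds immunoproteasome promoters, rose in model against normal libraries, from a mean of 76.3 to 217 TPM (1.53; adjusted p = 0.0233). Ifngr1, a subunit of the interferon gamma receptor, rose in combination against normal libraries, from 133 to 493 TPM (1.83; adjusted p = 0.0258).

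The class I loading factor tapasin and its relative, picked from the 10 genes after their values were seen, were also lowest in model replicates 1 and 3 among the model libraries. The sum of the 10 genes, of which B2m was the largest part, had another order. It was 5429, 4782 and 6079 TPM in model replicates 1, 2 and 3, lowest in replicate 2. Tapbp was at 51.6, 46.1 and 53.5 TPM in normal, 30.5, 61.1 and 21.3 in model, and 36.7, 41.1 and 23.2 in combination libraries, and Tapbpl at 49.0, 52.4 and 57.6, then 29.6, 56.3 and 27.5, then 38.1, 38.6 and 32.1 TPM. In both, model replicate 2 was close to or above the normal libraries and model replicates 1 and 3 were far below them. B2m, the light chain of MHC class I, did not show this order, at 3573, 3219 and 3196 TPM in normal, 3754, 3215 and 4053 in model, and 3424, 3273 and 2921 in combination libraries. Tapbp, Tapbpl and B2m did not pass in any comparison.

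Of the names set apart from the 42 genes, Psmc3ip was at 2.85, 2.69 and 2.38 TPM in normal, 3.15, 3.70 and 3.45 in model, and 1.93, 0.688 and 0.751 in combination libraries. Every combination library lay below all others, and the gene fell by 1.11 on the log2(TPM + 1) scale against model (limma adjusted p = 0.0375), a call lost in 11 of 20 alternative settings. Psme1-ps1 passed in no comparison.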

How the data were processed

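Total RNA of CD4+ T cells from rat peripheral blood was sequenced in 9 libraries, 3 a group, after library preparation with an NEBNext Ultra kit. The authors' processing used bcl2fastq and HISAT2 with the rn6 genome, per the submitters' processing notes, and StringTie 1.3.3b on a fixed set of 80092 transcripts, per the file headers. The deposited tables give TPM, FPKM and coverage of each transcript as other text attributes, as the authors' run wrote them, with no read counts, so no counting intervals were derived.

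TPM was summed by reference name within each assembled locus. Assembled transcripts without a name were assigned to the name at their locus, or by exon overlap where a locus held several. This gave 36858 gene units, of which 14175 averaged 1 TPM or more and were tested. A name missing in some libraries was taken from the others (13576 transcripts, 2 of them proteasome transcripts). Fold changes are on the log2(TPM + 1) scale, computed from the deposited TPM, and understate the change of low genes. Differences were tested with limma 3.58.1 in R 4.3.3 with an intensity trend over all 9 libraries (6 residual degrees of freedom), Benjamini-Hochberg adjustment over the 14175 units and a threshold of 0.05. The procedure was tested on simulated data. Summed levels, ratios and list counts are descriptions without a test.

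The genes, lists and rules were chosen with earlier results of these data known. Genes named were those that passed, the inducible and constitutive catalytic subunits, Psme1, Psme2, Psme3, Psmd11, Psmd14, Psmf1, the highest and lowest of each subcomplex, up to 3 with the largest fold change in a comparison, and listed genes outside the proteasome that passed. Psma1, Psmd6, Psmb1, Psmd5, Tapbp, Tapbpl, B2m, Cd4 and Cd3e were named after their values were seen. Of 42 genes, 42 matched a RefSeq symbol and 38 a start region. Alternatives were another pseudocount, filter, unit, scaling, transcript set, set of groups, variance model or weighting, a replicate block, and each library left out. The filter, intensity trend, set of groups, replicate block and a library outside the 2 groups compared leave a fold change as it was. They can move only its p-values. Deviations of same-numbered libraries correlated at -0.137 to 0.0554, so the numbers were not treated as pairs.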

Additional observations from a re-analysis of the deposited data

How the results depend on the processing

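The count of proteasome genes past the threshold moved with most settings, and so did the share of all genes that passed, given in brackets. In model against normal libraries, 1 gene passed (4.99%). The count was 0 with a pseudocount of 0.1 (4.34%), no filter (0.286%), named transcripts alone (2.12%), no intensity trend (5.12%) or only the 2 groups compared (0.797%), 4 with median-ratio scaling (10.3%) and 15 with array weights (21.1%). In combination against model, 3 passed (4.49%), and 0 with no filter (0.656%), named transcripts alone (1.08%) or only the 2 groups compared (0.169%). In combination against normal, 1 passed (4.59%), and 0 with no filter (0.686%) or named transcripts alone (0.789%). It was 3 with FPKM (10.2%), 4 with median-ratio scaling (10.6%), 3 without haemoglobin, mitochondrial and ribosomal protein genes (8.58%), 15 with array weights (28.0%) and 4 with only the 2 groups compared (9.76%). Leaving out each library in turn gave 0 to 10 genes (0.240% to 19.9%), 0 to 6 (0.219% to 9.21%) and 0 to 5 (0.148% to 11.1%) in the same order, each highest without model replicate 2. With the replicate number as a block, 0 genes passed in each comparison (1.15%, 0.0635% and 0.578%). The deviations of 1 library in 9 were most like those of its own number, which gave no sign of pairing by number. With 3 libraries a group, this check cannot exclude such pairing. The cause of these shifts was not tested.

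With named transcripts alone, Psmb8/Psmb5 in combination libraries went from 0.717 to 0.549, Psmb9/Psmb6 from 0.918 to 1.06 in normal and from 0.615 to 0.755 in combination libraries, and Psmb10/Psmb7 in combination libraries from 0.304 to 0.292.

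Among the genes chosen by the naming rule, signs turned 18 times, each for a log2 fold change that did not pass. Other genes turned too: with FPKM, 29 of the 42 genes were above 0 in model against normal in place of 32. In combination against normal, Psmb5 went to -0.0375 with FPKM, -0.0229 with median-ratio scaling and -0.0213 with array weights, Psmb8 to 0.10 with array weights and Psmd11 to -0.29 with named transcripts alone. In combination against model, Psmd14 went to 0.0447 without haemoglobin, mitochondrial and ribosomal protein genes. Over fits that left out 1 library, the range was -0.0209 to 0.0302 for Psmb5 and -0.29 to 0.13 for Psmb8 in combination against normal, and -0.31 to 0.19 for Psmb5 in model against normal. In combination against model it was -0.19 to 0.31 for Psmb5, -0.161 to 0.0302 for Psme1, -0.388 to 0.0136 for Psme2, -0.219 to 0.0204 for Psmf1 and -0.231 to 0.0849 for Psmd14. With 3 libraries a group and no read counts, small differences in low genes such as Psmd10 and Psmd5 could not be resolved.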
